A study of Mus musculus with 7 samples.

Results

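The matricellular adhesion proteins described here are the products of 10 mouse genes, Thbs1, Thbs2, Thbs3, Edil3, Ptn, Postn, Spp1, Fn1, Sparc and Tnc. A gene was represented by the array feature (a transcript cluster, the set of probes read for 1 transcript) whose annotation names that gene alone, and 9 of the 10 have one, among 18820 genes tested. Spp1, which encodes osteopontin, is named for no cluster in the annotation used here and has no value below. The cells were 3T3-L1, an established mouse pre-adipocyte line of clonal origin, on day 7 after 2 days of induction with isobutylmethylxanthine, dexamethasone and human insulin and then insulin alone, which all samples received. The inhibitor group has 3 samples, which were given 1 µM of a purchased stearoyl-CoA desaturase (SCD) inhibitor throughout, aimed at the enzyme that turns saturated into monounsaturated fatty acids, and the DMSO group has 4, given an equal volume of that solvent. Total RNA of each was read on 1 Affymetrix whole-transcript array, and all values are log2 expression levels made with RMA.

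Matricellular proteins are secreted into the space around cells, where they tune adhesion, growth factor activity and matrix assembly more than they bear load. They act through integrins, syndecans and receptors such as CD36, CD47 and LRP1, and several also bind collagen or latent TGF-beta. In fat tissue several of them are made by fibroblast-like precursors. The rounding and fat loading of a differentiating 3T3-L1 cell goes along with a change of its fibronectin-rich matrix, and SPARC and pleiotrophin are known from mouse studies as restraints on adipocyte formation.

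The labels call the material pre-adipocytes, while the series design calls it adipocytes. The 9 measured adipocyte markers, among them Adipoq and Fabp4, had gene means of 10.3 to 12.7 on a scale that runs from 2.23 to 13.25. Over all genes, Pearson correlations were 0.9990 to 0.9995 for the 9 pairs of arrays within a group and 0.9968 to 0.9975 for the 12 pairs across groups. Separate cultures are not stated for the replicates, and p-values therefore cover only variation among these samples, possibly technical. The number of arrays limits the precision. Differences are inhibitor minus DMSO on the log2 scale with the standard error (SE) of limma's fit over all genes, and called means an adjusted p under 0.05.

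The comparison asks what SCD inhibition during differentiation does to these transcripts. Most of the measured matricellular genes were higher with the inhibitor: Edil3, Thbs1, Ptn, Thbs2, Thbs3 and Postn rose, by 1.25-fold to 2.00-fold. Fn1, which encodes fibronectin, fell to a level 1.20-fold lower with the inhibitor. Sparc and Tnc did not pass the test. Thus 6 of 9 members were called higher and 1 lower, where 3.62% of all genes were called higher, 4.37% lower and 8.00% in either direction. In the same 6 genes all inhibitor arrays lay above all DMSO arrays, as they did for 8.30% of all genes, and in Fn1 they lay wholly below, as for 9.02%. The median difference of the 9 members was 0.41, against -0.0037 over all genes tested. The members were chosen with earlier results of these data known, so the values over all genes give a scale and no test. The share called varied with level: of 528 genes within 0.25 of the mean level of Thbs1, 20.5% were called, of 828 within 0.25 of that of Edil3, 3.86%, and of 70 within 0.25 of that of Sparc, 2.86%. Near the levels of Thbs2, Postn, Ptn and Fn1 the share was 18.4% to 20.2%, and near that of Thbs3 5.50%.

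**Figure D1:**
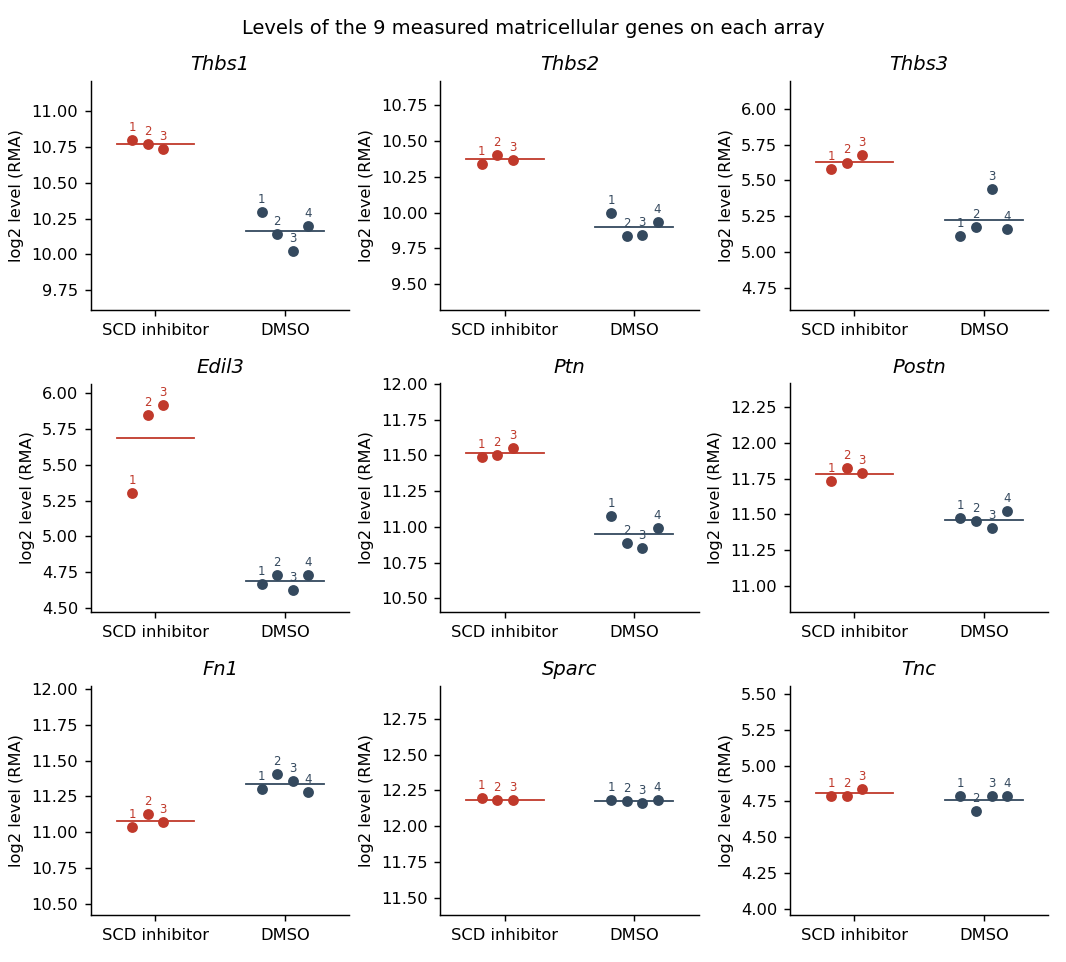
Each panel shows 1 gene, with a point for each array (numbered by replicate) on the log2 RMA scale, the 3 SCD inhibitor arrays left of the 4 DMSO arrays, and a line at each group mean. Every panel spans the same 1.6 log2 units. The groups stand apart in Thbs1, Thbs2, Thbs3, Edil3, Ptn and Postn (inhibitor above) and in Fn1 (inhibitor below), while Sparc stays within 12.16 to 12.20 and Tnc within 4.68 to 4.83.

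The 3 thrombospondins among the members rose. Of the same family but outside the members and the naming rule, Thbs4 had a difference of -0.018 (adjusted p = 0.717 in limma) and Comp, also known as thrombospondin 5, one of 0.08 (adjusted p = 0.239), and neither passed the test. Thrombospondin 1, from Thbs1, is a secreted glycoprotein that binds CD36 and CD47 and can activate latent TGF-beta. Thbs1 read 10.80, 10.77 and 10.74 on the inhibitor arrays, against 10.29, 10.14, 10.03 and 10.20 on the DMSO arrays. The lowest inhibitor array lay 0.45 above the highest DMSO array. The means were 10.77 ± 0.028 with the inhibitor (SD, n = 3) and 10.17 ± 0.11 in DMSO (SD, n = 4), a difference of 0.60 (SE 0.060, 95% interval 0.46 to 0.75, adjusted p = 0.0020 in limma), or 1.52-fold.

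Thrombospondin 2, its closest relative, shares the CD36-binding repeats and takes part in the clearance of matrix metalloprotease 2 through LRP1. Thbs2 read 10.34, 10.40 and 10.37 with the inhibitor, against 9.99, 9.84, 9.84 and 9.93 in DMSO. The groups did not overlap, with a gap of 0.35 between them. The difference was 0.47 (SE 0.044, 95% interval 0.37 to 0.57, adjusted p = 0.00148), a 1.38-fold increase.

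Thrombospondin 3 belongs to the other subgroup of the family, which lacks those repeats. Thbs3 lay low on the scale, at 5.58, 5.62 and 5.68 with the inhibitor, against 5.11, 5.18, 5.44 and 5.16 in DMSO. DMSO 3 stood nearest to the inhibitor arrays, 0.14 below the lowest of them. The difference was 0.41 (SE 0.080, adjusted p = 0.0274), and the call held in 1 of the 7 fits without 1 array, that without DMSO 3 (adjusted p = 0.00199). Without any of the other 6 arrays the adjusted p was 0.0700 to 0.106, with differences of 0.37 to 0.43.

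Edil3 had the largest difference of the members. It encodes a secreted protein with EGF-like and discoidin-like domains that binds alpha-v integrins through an RGD motif and is best known from endothelial cells and from the restraint of leukocyte adhesion. Edil3 read 5.30, 5.85 and 5.92 with the inhibitor, against 4.67, 4.73, 4.62 and 4.73 in DMSO. Those DMSO values lay below the mean level of Tnc (4.78). Detection calls were not used, so whether Edil3 is expressed in DMSO is not stated. SCD inhibitor 1 was the lowest of its group by 0.55, and still lay 0.57 above the highest DMSO array. The means were 5.69 ± 0.34 with the inhibitor (SD, n = 3) and 4.69 ± 0.053 in DMSO (SD, n = 4), so that the inhibitor group spread more. The difference of 1.00 (SE 0.14, 95% interval 0.66 to 1.34, adjusted p = 0.00838 in limma) corresponds to 2.00-fold and was the fifth largest of 682 called increases. It ranged from 0.89 to 1.19 in the fits without 1 array, and all 7 of them called it.

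Pleiotrophin, from Ptn, is a small heparin-binding growth factor that acts through the receptor phosphatase PTPRZ1, the kinase ALK and syndecans. Ptn read 11.49, 11.50 and 11.55 with the inhibitor, against 11.07, 10.89, 10.85 and 10.99 in DMSO. No DMSO array came within 0.41 of the inhibitor arrays. The difference was 0.56 (SE 0.056, 95% interval 0.43 to 0.70, adjusted p = 0.00191), a 1.48-fold increase.

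Periostin, from Postn, binds collagen and alpha-v integrins and aids the assembly of collagen fibrils. Postn read 11.73, 11.82 and 11.79 with the inhibitor, against 11.47, 11.46, 11.41 and 11.52 in DMSO. The groups did not overlap, and the gap of 0.21 was larger than the range within either group. Its increase was the smallest of those called, 0.32 (SE 0.034, 95% interval 0.24 to 0.40, adjusted p = 0.00274), or 1.25-fold.

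Promoter sequence from RefSeq (GRCm38.p6) was on hand for 7 of the 10 genes, and the 100 bases before the annotated start are shown for the 4 called ones among them, since these rose together. Thbs1, Edil3 and Fn1 have no entry in the table. Capitals mark matches, on either strand, to the TATA box TATAAA, the CCAAT box CCAAT, the GC box GGGCGG, the AP-1 site TGANTCA and the sterol element TCACNCCAC. No 2 matches overlap. Postn has 2 annotated starts, and the upstream one holds no match. The stretches are chr17:14694263-14694362 on the minus strand, chr3:89215080-89215179 on the plus strand, chr3:54359167-54359266 and chr3:54361007-54361106 on the plus strand and chr6:36810180-36810279 on the minus strand, in the order printed.
Thbs2: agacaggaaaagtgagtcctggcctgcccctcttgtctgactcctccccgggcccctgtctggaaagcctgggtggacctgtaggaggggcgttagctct
Thbs3: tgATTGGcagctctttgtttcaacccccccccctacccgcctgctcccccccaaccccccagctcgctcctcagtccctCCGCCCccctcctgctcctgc
Postn, upstream start: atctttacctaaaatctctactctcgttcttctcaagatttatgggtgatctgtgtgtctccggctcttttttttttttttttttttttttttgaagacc
Postn, downstream start: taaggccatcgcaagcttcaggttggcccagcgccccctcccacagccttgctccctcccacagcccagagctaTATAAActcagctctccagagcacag
Ptn: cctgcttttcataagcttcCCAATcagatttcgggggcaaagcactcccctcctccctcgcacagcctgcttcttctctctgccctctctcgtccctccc

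These promoters shared no motif of the 5 across all 4 genes. The downstream start of Postn has a TATA box 26 bases before the start, a motif found in 5.56% of 32851 such windows. Ptn has a CCAAT box 81 bases before the start and Thbs3 an inverted one at 98 bases, against 18.9% of all windows. Thbs3 also holds an inverted GC box at 21 bases (24.7% of all windows), and the window of Thbs2 holds no match. The AP-1 site (2.73% of all windows) was in none of the 10 member windows. The sterol element (0.423%) was in 1 of them, that of Spp1, 61 bases before its first start. Neither Sparc nor Tnc held any of the 5. A match describes letters and not a bound factor.

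Fn1 moved against the others. Fibronectin is the main adhesive glycoprotein of the fibroblast matrix, recognised by integrin alpha-5 beta-1 and assembled by cells into fibrils. Fn1 read 11.04, 11.12 and 11.07 with the inhibitor, against 11.30, 11.40, 11.36 and 11.28 in DMSO. The highest inhibitor array lay 0.15 below the lowest DMSO array. Fn1 fell by 0.26 (SE 0.037, 95% interval -0.35 to -0.17, adjusted p = 0.00839 in limma). The call held in all 7 fits without 1 array (adjusted p 0.0169 to 0.0429) and was lost when DMSO 1 and SCD inhibitor 1 were both left out (adjusted p = 0.0807). The array reads fibronectin as 1 value, so its splice forms were not told apart.

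Sparc, which encodes a collagen-binding protein that loosens cell adhesion, read 12.20, 12.18 and 12.18 with the inhibitor, against 12.18, 12.17, 12.16 and 12.18 in DMSO. The groups touched at 12.18. The difference was 0.01 (SE 0.016, 95% interval -0.03 to 0.05, adjusted p = 0.727 in limma). Its mean level of 12.18 is near the top of the scale, and of the 40 genes above it, 1 was called, with a change of 0.23. Whether a change of Sparc was hidden at that level was not tested.

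Tenascin C, from Tnc, is a large modular protein that appears in wounds and remodelling tissue. Tnc held the same value, 4.79, on 5 of the 7 arrays, with 4.83 on SCD inhibitor 3 and 4.68 on DMSO 2. Such ties are common in this table, since 12.5% of the genes have 1 value on 5 or more arrays. The difference was 0.04 (SE 0.034, 95% interval -0.04 to 0.12, adjusted p = 0.517 in limma). Among 1108 genes within 0.25 of its level, 2.08% were called. Detection calls were not used here, so whether a gene at this level is expressed is not stated.

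**Figure D2:**
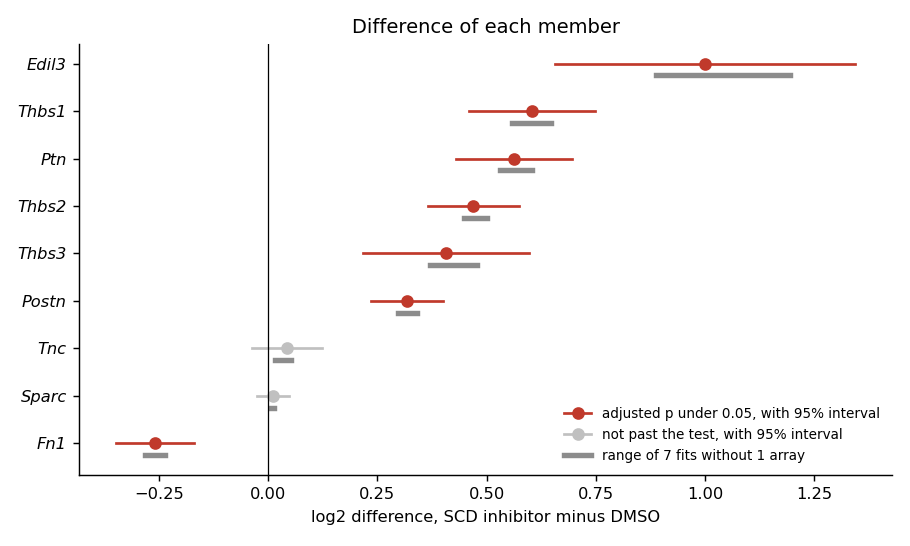
The horizontal axis is the log2 difference, SCD inhibitor minus DMSO, and each row is 1 gene. Points and thin lines give the difference and its 95% interval, red where the adjusted p was under 0.05, and grey bars give the range over the 7 fits without 1 array. Edil3 lies farthest right at 1.00 with the widest interval, Fn1 alone lies left of 0 as a called gene, and the interval of Sparc is the narrowest.

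A constant shift of a whole array drops out of the difference between 2 members taken within it. A normalization that acts by level, such as quantile normalization, need not drop out. Thbs1 minus Thbs2 was 0.46, 0.37 and 0.37 with the inhibitor, against 0.30, 0.31, 0.19 and 0.27 in DMSO. That within-array difference was thus 0.13 larger with the inhibitor on average, and the groups did not overlap. Ptn minus Thbs1 was 0.69, 0.73 and 0.81 with the inhibitor, against 0.78, 0.74, 0.82 and 0.79 in DMSO. Here the groups overlapped, and the mean changed by -0.04. Postn minus Fn1 was 0.70, 0.70 and 0.72 with the inhibitor, against 0.17, 0.051, 0.047 and 0.24 in DMSO, the largest change among the 5 pairs computed, at 0.58. The pairs were picked after the values were seen and are given without a test.

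The DMSO arrays had a common order in a few members. Thbs1 and Ptn were each highest on DMSO 1, then DMSO 4, DMSO 2 and DMSO 3, and Thbs2 had the same first pair. In Sparc, DMSO 1 and DMSO 4 held the same value, above DMSO 2 and DMSO 3. Thbs3 ran the other way at both ends, highest on DMSO 3 and lowest on DMSO 1. On the inhibitor side, Edil3, Ptn and Thbs3 were lowest on SCD inhibitor 1 and highest on SCD inhibitor 3, while Thbs1 was highest on SCD inhibitor 1.

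Other matricellular and adhesive matrix proteins did not move as one. Of 39 measured genes, 6 were called higher, 2 lower and 31 not, and the median difference was 0.03. Over all genes 3.62% were called higher and 4.37% lower, shares to hold beside the counts of this list and those below. Fbln2, which encodes the basement membrane protein fibulin 2, rose by 0.75 (SE 0.073), with 10.32, 10.34 and 10.19 on the inhibitor arrays, against 9.71, 9.42, 9.47 and 9.54 on the DMSO arrays. Spon2, an integrin ligand, rose by 0.50 (SE 0.066). Npnt, whose product nephronectin is the ligand of integrin alpha-8 beta-1, fell by 0.80 (SE 0.051), and Smoc1, a calcium-binding relative of SPARC, fell by 0.61 (SE 0.081). The call of Smoc1 was lost without DMSO 1 and SCD inhibitor 1 together (adjusted p = 0.0939 in limma).

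Receptors of the members were split. Of 30 measured, 5 were called higher and 2 lower, with a median of 0.05. Egfr, the receptor of epidermal growth factor, which the EGF-like repeats of tenascin C can engage, rose by 0.67 (SE 0.033), at 8.97, 9.03 and 8.93 with the inhibitor against 8.30, 8.30, 8.27 and 8.37 in DMSO. Sdc3, a syndecan and pleiotrophin receptor, rose by 0.47 (SE 0.067, adjusted p = 0.0750 without both arrays numbered 1). Nrp1, a coreceptor of semaphorins and vascular growth factors, rose by 0.43 (SE 0.031) and Lrp8, a lipoprotein receptor that binds thrombospondin 1, by 0.39 (SE 0.044).

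The other receptors given here are outside the naming rule and were picked after their values were seen. Itgb1, the beta subunit of most fibronectin receptors, rose by 0.24 (SE 0.051, adjusted p = 0.0370). That call held without DMSO 1 (adjusted p = 0.0342) and ended without any other array (adjusted p 0.0529 to 0.131) and with the mean over its clusters (0.0881). Sdc4, the syndecan of focal adhesions, fell by 0.24 (SE 0.025), and Notch1 fell by 0.20 (SE 0.024, adjusted p = 0.0583 without both arrays numbered 1). Itgav had a difference of 0.17 (adjusted p = 0.278) and Itgb3 one of 0.21 (adjusted p = 0.0803, and 0.0490 without SCD inhibitor 1), neither past the test. The thrombospondin receptors Cd36 (-0.04, adjusted p = 0.591) and Cd47 (-0.05, adjusted p = 0.622) did not pass either.

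Proteases that act on this matrix and their inhibitors were called higher in 7 of 16 cases and lower in 1, with a median of 0.22. Adamts1, a protease that can cut thrombospondins, rose by 0.89 (SE 0.027), at 10.40, 10.45 and 10.42 with the inhibitor against 9.52, 9.57, 9.48 and 9.57 in DMSO. Mmp2, a gelatinase, rose by 0.58 (SE 0.043), and Mmp14, which activates it, by 0.78 (SE 0.045). Mmp11, stromelysin 3, fell by 1.27 (SE 0.066).

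Among 13 genes of TGF-beta ligands, latency proteins, receptors and signal carriers, 4 were called higher and 1 lower, with a median of 0.02. Ltbp1, which tethers latent TGF-beta to the matrix, rose by 0.45 (SE 0.048), and Tgfb2 rose by 0.44 (SE 0.039). Tgfbr3, a coreceptor from outside the naming rule and picked after its value was seen, rose by 0.18 (SE 0.030), with adjusted p = 0.0510 without SCD inhibitor 1 and 0.0591 without SCD inhibitor 2. Tgfbr1 rose by 0.28 (SE 0.064, adjusted p = 0.0451) and kept its call only without SCD inhibitor 1 (adjusted p = 0.0149) among the 7 fits without 1 array and otherwise had adjusted p of 0.0982 to 0.149. Tgfb1 fell by 0.18 (SE 0.035, adjusted p = 0.0232), held only without DMSO 1 (adjusted p = 0.0152), and otherwise had adjusted p of 0.0557 to 0.0839.

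Of 14 measured genes of the integrin adhesion machinery, 1 was called higher and 2 lower, with a median of -0.01. Their gene means were 7.93 to 12.39. Of all genes, 18.4% to 20.5% were called near the levels of Thbs1, Thbs2, Postn, Ptn and Fn1, and 2.86% near that of Sparc. Vcl, vinculin, rose by 0.26 (SE 0.054, adjusted p = 0.0350), Zyx, zyxin, fell by 0.23 (SE 0.038, adjusted p = 0.0148) and Pxn, paxillin, fell by 0.21 (SE 0.050, adjusted p = 0.0499). Vcl and Pxn lost their calls in all 7 fits without 1 array (adjusted p 0.0519 to 0.107 and 0.0645 to 0.162). Zyx lost its call without DMSO 4 (adjusted p = 0.0548), SCD inhibitor 2 (0.0601) and SCD inhibitor 3 (0.0602). Of 13 targets of YAP and serum response factor, 2 were called higher, Vcl and Lats2, a kinase that restrains YAP (0.30, SE 0.048, adjusted p = 0.0627 without SCD inhibitor 3), and none lower in limma.

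**Figure D3:**
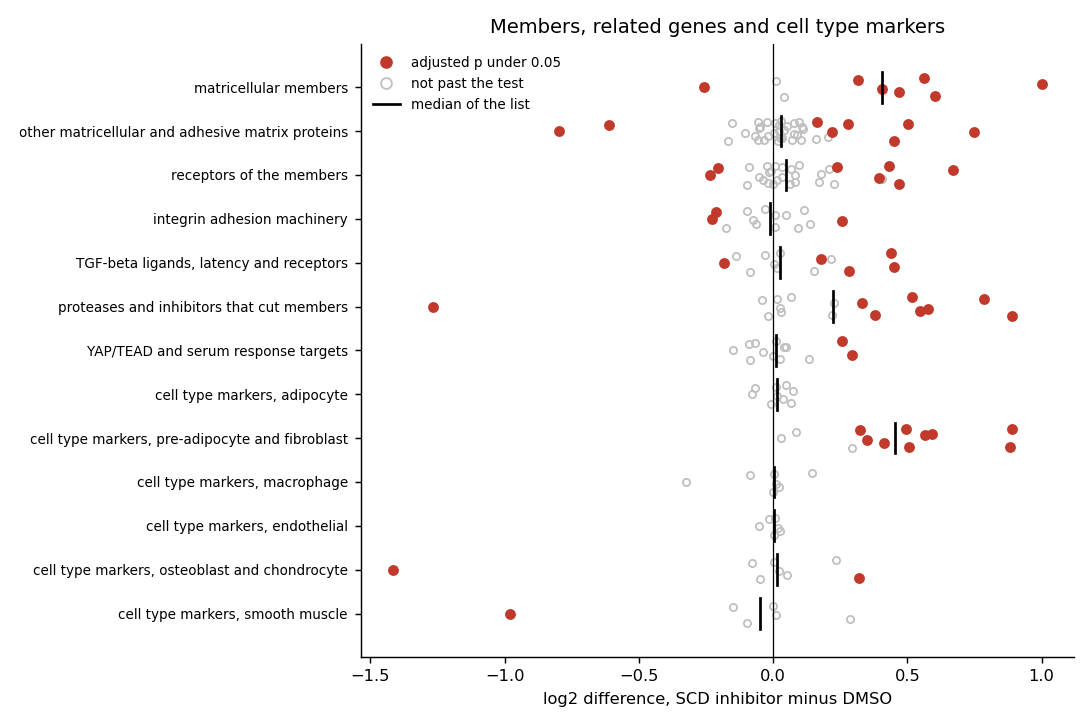
Each point is 1 gene, placed by its log2 difference (SCD inhibitor minus DMSO) in the row of its list, filled red where the adjusted p was under 0.05, and a vertical bar marks the median of the list. The medians of the members (0.41) and of the pre-adipocyte and fibroblast markers (0.45) lie to the right, while those of the macrophage and endothelial markers lie near 0. Some genes stand in more than 1 list.

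Markers of pre-adipocytes and fibroblasts moved with the members. Of 12 measured, 9 were called higher and none lower in limma, with a median difference of 0.45. Their mean log2 level was 9.47 to 9.53 on the inhibitor arrays and 8.98 to 9.08 on the DMSO arrays. Pdgfra, the platelet-derived growth factor receptor of fat precursors, rose by 0.89 (SE 0.093), S100a4 by 0.88 (SE 0.10) and Dcn, the proteoglycan decorin, by 0.59 (SE 0.059, adjusted p = 0.0519 without both arrays numbered 1). Lum, lumican, rose by 0.56 (SE 0.12), with adjusted p of 0.0599 to 0.127 without DMSO 2, DMSO 3 or any inhibitor array. The part of these markers in the rise of Thbs1, Thbs2, Thbs3, Edil3, Ptn and Postn was not tested, and in RNA from a whole culture more cells of a type and more RNA per cell cannot be told apart. The adipocyte markers had 0 of 9 calls in limma, 2 with an unadjusted p under 0.05, Pparg (0.07, adjusted p = 0.135) and Plin1 (0.07, adjusted p = 0.210). The mean level of the 9 was 12.01 to 12.06 with the inhibitor and 12.02 to 12.06 in DMSO. Adipoq, Fabp4, Lpl, Cidec and Retn lay above the mean level of Sparc (12.18). Of the 40 genes above that level, which include these markers, 1 was called. Whether a change of these markers was hidden there was not tested. Cebpa, Pparg, Plin1 and Lipe lay lower, with mean levels of 10.26 to 12.07, and were not called either.

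Macrophage and endothelial markers lay low. The 7 macrophage markers had 0 calls in limma (1 with an unadjusted p under 0.05) and a mean level of 4.28 to 4.34 with the inhibitor, against 4.33 to 4.37 in DMSO. Lyz2 had a difference of -0.33 (adjusted p = 0.146) and Cd14 one of 0.15 (adjusted p = 0.259). The 6 endothelial markers had 0 calls in limma and 0 with an unadjusted p under 0.05, with a mean level of 3.80 to 3.84 with the inhibitor and 3.79 to 3.89 in DMSO; the differences of Emcn and Cdh5 were 0.03 and -0.02. Of 8 osteoblast and chondrocyte markers, Alpl, alkaline phosphatase, fell by 1.42 (SE 0.063), Sox9 rose by 0.32 (SE 0.048) and 6 were not called. The mean levels of that list, Alpl included, were 5.14 to 5.21 with the inhibitor and 5.25 to 5.34 in DMSO. Of 6 smooth muscle markers, Des, desmin, fell by 0.98 (SE 0.056) and 5 were not called, among them Myh11 with a difference of 0.29. The mean levels of the smooth muscle list, Des included, were 6.02 to 6.05 with the inhibitor and 6.19 to 6.20 in DMSO.

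Among the genes ranked, those most like Edil3 over the 7 arrays, by Pearson correlation of the log2 values, were Pdp1, a phosphatase that activates pyruvate dehydrogenase (r = 0.991), Atl3, a shaper of the endoplasmic reticulum (r = 0.988), and Sema3a, a secreted guidance protein (r = 0.987). They rose by 0.33, 0.23 and 0.71. Predicted genes, RIKEN clones, small RNAs and olfactory and vomeronasal receptors were left out of that ranking. The 7 points share their arrays and fall into 2 groups, and 141 genes had r above 0.95 with Edil3. The call of Pdp1 ended without SCD inhibitor 2 (adjusted p = 0.0528 in limma).

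**Figure D4:**
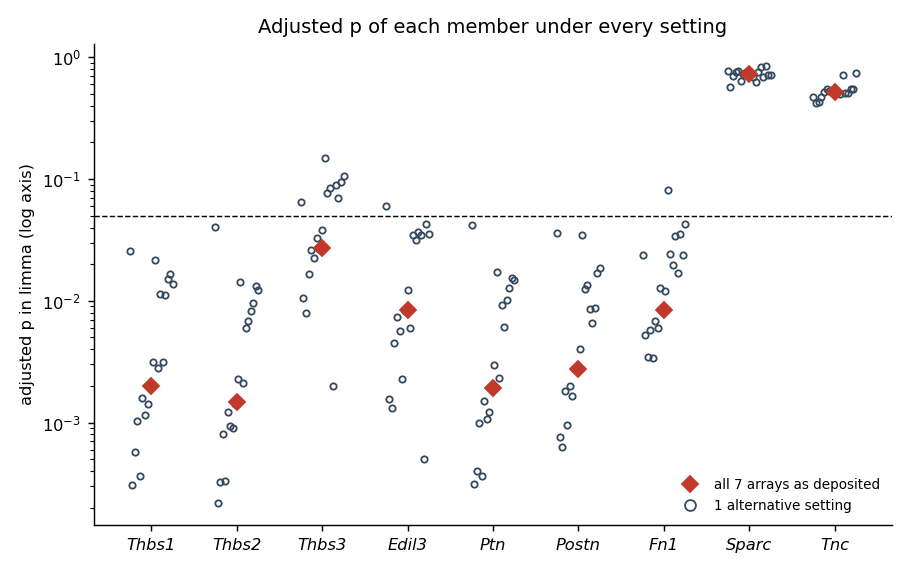
The vertical log axis is the adjusted p in limma and each column is 1 gene, with a red diamond for all 7 arrays as deposited and an open circle for each alternative setting. The dashed line is 0.05. Thbs1, Thbs2, Ptn and Postn stay under the line throughout, Edil3 and Fn1 cross it once each (0.0595 and 0.0807), Thbs3 crosses it 8 times (up to 0.150), and Sparc and Tnc stay above it.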

How the data were processed

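Per the submitters' processing notes, the authors used RMA to make the deposited log2 expression levels, from biotin-labelled target of 100 ng RNA a sample, per the labels' protocols. No RMA version or genome build is given in the labels, and scanner files were not used. Of 28996 transcript clusters, 21218 carried 1 gene symbol, 1881 several and 5897 none in the array annotation. The cluster with the highest mean stood for a gene, which left 18820 genes with no filter. Each measured member has 1 such cluster.

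The 7 arrays were grouped by the treatment label and fitted with limma 3.58.1 in R 4.3.3 (lmFit and eBayes, no trend, not robust, no block), with 5 residual and 1.68 prior degrees of freedom and Benjamini-Hochberg adjustment over all genes. The script was tested on simulated data. The members, gene lists, tests and alternatives were chosen with earlier results of these data known.

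Named were all members, up to 4 called genes of each list by size of change (or the 2 with the smallest p where none was called), and the 3 genes most correlated with the called member of largest change after the exclusions given above, 36 beside the members. Others are marked in the text. Alternatives were the replicate block, other scalings, filters on dim genes, eBayes options, array weights, other cluster rules, a stricter threshold and leaving out arrays. Promoter letters are RefSeq's.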

Additional observations from a re-analysis of the deposited data

Results flagged for a closer look

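Among 55 genes printed, the DMSO group of 4 arrays had 1 array far from the rest in 8. Chance flags about 1 group in 20 where values are continuous, but in 6 of the 8 (all but Itgav and Sema3a) some DMSO arrays held equal values, so that rate does not apply there. Of the members, 1 had such an array, Tnc, at 4.68 on DMSO 2 against 4.79 on each of the other DMSO arrays, where any departure of 1 array is marked. DMSO 2 also stood low in Cd14 (3.88, others 3.94 to 3.95) and Emcn (3.63, others 3.71 to 3.72). DMSO 1 stood low in Itgav (8.23, others 8.46 to 8.50) and high in Cdh5 (3.93, others 3.90) and Thbs4 (4.896, others 4.83 to 4.84). DMSO 3 stood low in Tgfbr1 (9.46, others 9.57 to 9.60), and DMSO 4 stood high in Sema3a (7.75, others 7.58 to 7.59). The spread in the 3 inhibitor arrays, such as that of Edil3, was not tested in this way.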

How the results depend on the processing

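All 9 members kept their direction under every alternative run, 18 for each (17 for Edil3, Thbs3 and Tnc, which the filter on the dimmest 50% of genes removes). Of 159 values of members under alternatives, 149 stayed on their side of the threshold and 10 lost it. Deviations from the group means correlated at 0.174, 0.138 and 0.0796 between arrays numbered 1, 2 and 3. Each inhibitor array correlated best with its own number, a hint from the data only, and the samples were taken to share a number, not a pairing. With the replicate block, which rests on 3 pairs, 4 members were called higher: Edil3 (1.02, adjusted p = 0.0595 in limma) and Thbs3 (0.38, adjusted p = 0.0653) lost their calls. With that block 11 printed genes outside the members also lost their calls (adjusted p 0.0544 to 0.191 in limma): Spon2, Sox9, Vcl, Zyx, Pxn, Tgfb1, Tgfbr1, Tgfbr3, Itgb1, Notch1 and Pdp1. Without both arrays numbered 1, Thbs3 (0.39, adjusted p = 0.150) and Fn1 (-0.25, adjusted p = 0.0807, unadjusted p = 0.00563) lost theirs, so that 0 members were called lower in limma. Without 1 array at a time the number called higher was 5 to 6 and the difference of Thbs3 0.37 to 0.48. At an adjusted p of 0.01, 5 were called higher and 1 lower, and 4 higher with the dimmest 50% dropped. The cause of these changes was not tested, except that dropped genes cannot be called. Over all genes 682 were called higher and 823 lower, against 437 and 459 with the replicate block, 1106 and 1022 after a further quantile normalization, 1117 and 943 with centred arrays, 434 and 374 without both arrays numbered 1, and 369 to 712 and 541 to 643 without 1 array. Of the genes outside the members, 743 values stayed, 71 lost the call, 4 gained it, and 3 uncalled ones turned: Cd36 to 0.0068 and Thbs4 to 0.014 without both arrays numbered 1, and Cd47, at -0.0796 to 0.0063 without 1 array, without SCD inhibitor 1. Signal over background was not used here, and low levels such as those of Tnc, Edil3 and Thbs3 lie where array values can compress changes.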
